A study of Mus musculus with 18 samples.

Results

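The messenger RNAs of 10 proteins that bring fatty acids into cells, carry them in the cytosol and activate them were followed in mouse liver. They were the uptake proteins Cd36 and Slc27a2, the binding proteins Fabp1, Fabp2, Fabp4 and Fabp5, and the acyl-CoA synthetases Acsl1, Acsl3, Acsl4 and Acsl5. They were chosen by gene symbol, matched to the Ensembl gene identifiers of the deposited counts, and make up 10 of the 22524 genes listed. All 10 passed the filter on low counts and were among the 13353 genes tested.

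RNA-Seq compared livers of 10 A226Y mice with livers of 8 wild-type mice (WT), all of them female, 15 months old and on the C57BL/6 strain, with 1 library from each mouse. A226Y mice were heterozygous for a knock-in of Rps2-A226Y, a mutation of a small-subunit ribosomal protein that lowers the accuracy of decoding, behind a STOP cassette flanked by loxP sites. Cre under the CMV promoter removed the cassette in only some cells, so each A226Y liver was a mosaic that also held cells with the silent, unexcised allele. The WT mice carried the same Cre transgene. The comparison asks how a liver with error-prone translation differs in its transcripts, and here the question is put to fatty acid uptake, binding and activation. Because the unexcised allele is silent, A226Y livers also differ in the dose of Rps2, and these mice cannot separate dose from misreading. For the dose the study compared haploinsufficient mice with their own controls and reports few changed genes. Those mice were not used here.

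Long-chain fatty acids reach the liver from adipose tissue on albumin and from lipoproteins. CD36 and the FATP family, of which Slc27a2 encodes FATP2, help them across the plasma membrane. In the cytosol they bind to small fatty acid-binding proteins, of which FABP1 is the liver form, FABP2 the intestinal form, and FABP4 and FABP5 the forms of adipocytes, macrophages, endothelium and epidermis. Before a fatty acid can be oxidised, esterified or built into membranes it is joined to coenzyme A by an acyl-CoA synthetase, and the ACSL enzymes differ in membrane and in substrate: ACSL1 is the main form of liver, ACSL3 sits on the endoplasmic reticulum and lipid droplets, ACSL4 prefers arachidonic acid, and ACSL5 is found at mitochondria and the endoplasmic reticulum. Several of these genes are known targets of the nuclear receptors PPAR-alpha and PPAR-gamma, which bind, together with RXR, to a direct repeat with 1 base between its half-sites (DR1).

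The starts of the genes were searched for that element first. RefSeq promoters, taken on GRCm38.p6 from 250 bases before to 50 after a start, were at hand for 8 of the 10 members in 9 entries, since Acsl1 has 2 starts, and for neither Fabp4 nor Fabp5. The DR1 was written as AGGTCANAGGTCA and searched on both strands. Its exact form was in 0.0396% of the 32851 mouse promoters and in none of the 9 entries, and the form with 1 mismatch allowed was in 0.554% of all promoters and in 1 of the 9, that of Fabp1. The TATA box TATAAA, searched in the same way, was in 13.6% of all promoters and again in that of Fabp1 alone among the members. Printed 5′ to 3′ on the gene's own strand are the promoter of Fabp1 (chr6:71199629-71199928, plus strand), where the capitals mark the DR1 match, which starts 67 bases before the start and reads on the minus strand, and the TATA box at 30 bases before it, and the promoter of Acsl3 (chr1:78657575-78657874, plus strand), the member with the smallest p between the genotypes, which has no capitals because neither motif matched.
Fabp1: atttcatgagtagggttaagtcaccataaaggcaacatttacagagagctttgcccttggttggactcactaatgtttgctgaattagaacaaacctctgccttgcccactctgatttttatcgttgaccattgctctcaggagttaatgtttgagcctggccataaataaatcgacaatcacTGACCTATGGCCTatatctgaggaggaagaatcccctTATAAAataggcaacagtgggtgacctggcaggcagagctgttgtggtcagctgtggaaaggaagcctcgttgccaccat
Acsl3: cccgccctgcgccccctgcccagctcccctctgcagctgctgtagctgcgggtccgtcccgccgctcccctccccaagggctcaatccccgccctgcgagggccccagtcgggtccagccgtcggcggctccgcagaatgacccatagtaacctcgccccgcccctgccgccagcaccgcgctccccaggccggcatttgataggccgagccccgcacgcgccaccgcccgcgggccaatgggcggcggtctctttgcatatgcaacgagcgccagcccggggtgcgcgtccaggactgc
The Fabp1 window was 45.0% G and C and that of Acsl3 74.0%. A match describes letters in this window only.

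The libraries held 23850565 to 62126131 counts in A226Y and 25869192 to 34918732 in WT. Rps2 itself was at 46.9 to 83.0 CPM (read counts relative to the scaled size of the library) in A226Y and at 104 to 143 in WT, with no overlap. On the first principal component of log2 CPM, which held 25.1% of the variance, A226Y mice lay at -26.5 to -0.383. WT mice lay at -11.5 to 39.0 on it, highest in mice 33 and 14. On the second, which held 19.1% of the variance, A226Y mouse 29 and WT mouse 33 stood apart from the other mice, and several results below are also given without these 2 mice. Libraries also differed in a trend with transcript length, taken as the slope of gene-centred log2 CPM on log2 length. That slope ran from -0.0074 to 0.0925 in A226Y and from -0.0941 to 0.0112 in WT, so it moved with genotype. With an offset for transcript length 1559 genes were called, against 1910 without it. The cause of the trend was not tested. Markers of hepatocytes were abundant in every library (Alb 48039 to 144020 CPM).

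Per length of its exons, Fabp1 was the most abundant member and Fabp5 the least. In WT, Fabp1 stood at 3900 ± 581 CPM per kilobase (mean ± SD, n = 8) and Slc27a2 at 472 ± 47.8. Fabp2 at 95.3 ± 26.1, Cd36 at 74.9 ± 19.6, Acsl1 at 70.9 ± 7.91 and Acsl5 at 53.3 ± 3.83 formed a middle group. Acsl4 at 7.93 ± 1.58 and Acsl3 at 7.06 ± 1.54 followed, and Fabp4 at 1.30 ± 0.457 and Fabp5 at 1.0 ± 1.17 were lowest. Without WT mouse 33 the level of Fabp5 in WT was 0.588 ± 0.159 (SD, n = 7). The steps from Fabp1 to Slc27a2, from Slc27a2 to Fabp2 and from Acsl5 to Acsl4 were wider than the spread, since the ranges over mice did not overlap in WT or in A226Y. Per length of all exons, the ranges of Acsl3 and Fabp4 in WT did not overlap either, while in A226Y they did. Neighbours within the middle group overlapped in both genotypes, as did Acsl4 with Acsl3 and Fabp4 with Fabp5. The exon lengths of Acsl1 (10483 bases), Fabp4 (4489 bases) and Fabp5 (3567 bases) cover all annotated exons of the gene, against 3897, 896 and 987 bases for the longest principal transcripts. Per length of the longest principal transcript, Acsl1 moved up to rank 3 with 191 ± 21.3 CPM per kilobase in WT, and Fabp4 and Fabp5 came to 6.52 ± 2.29 and 3.61 ± 4.24. Acsl3 was at 7.78 ± 1.70 in WT by that length, above Fabp4 by less than either SD. In A226Y the order turned, with Fabp4 at 9.86 ± 3.63 (rank 8) and Acsl3 at 5.40 ± 1.32 (rank 9). The separation of Acsl3 from Fabp4 in WT thus depended on the length used.

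**Figure D1:**
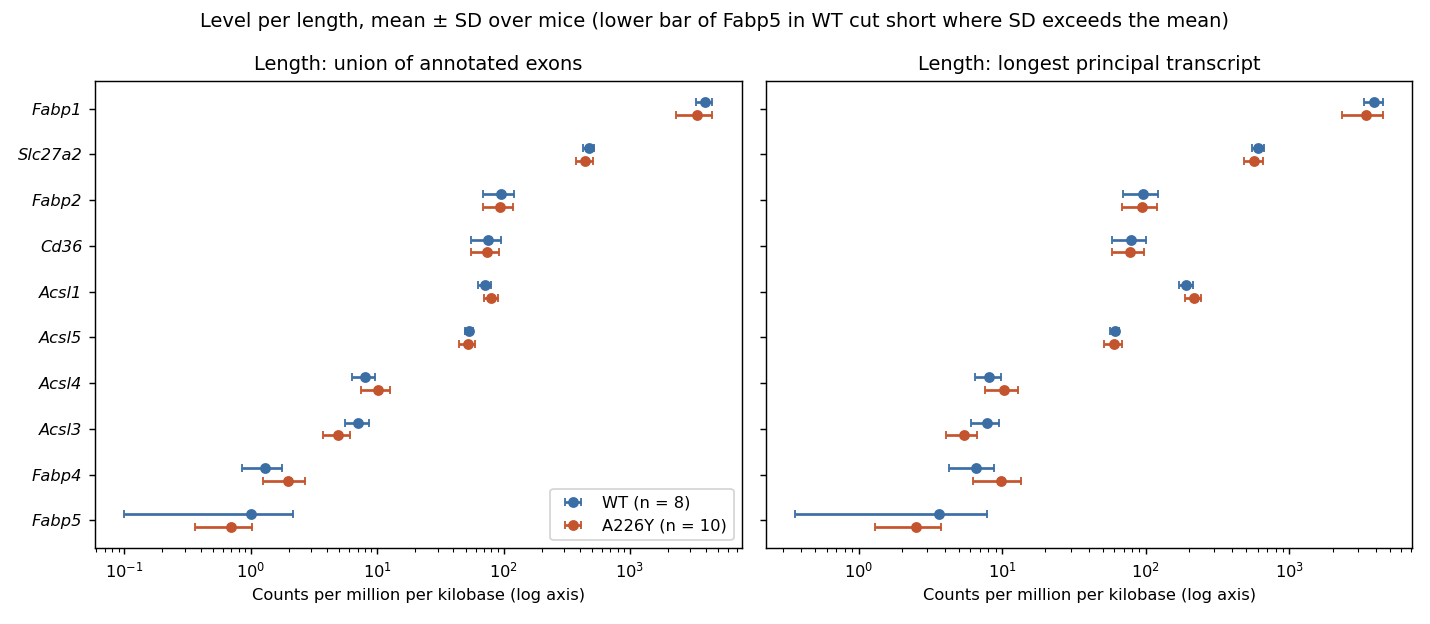
Level of each gene in CPM per kilobase on a log axis, with the mean and SD over 8 WT mice (blue) and 10 A226Y mice (orange), once per length of all exons (left) and once per length of the longest principal transcript (right). Fabp1 and Slc27a2 lie above all other genes in both panels, and Acsl1 shifts from 70.9 to 191 in WT between them.

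Between the genotypes, 1 of the 10 members passed the test. Acsl3 was lower in A226Y, at 0.695 of its WT level, and the other 9 were not called at an adjusted p of 0.05. Over all genes tested, 14.3% were called, with 7.27% higher and 7.03% lower in A226Y, so that 1 of 10 is close to the background. At an unadjusted p under 0.05 stood 3 members (Acsl3, Fabp4 and Acsl4), beside 29.6% of all tested genes, and none of the 10 had genotypes that did not overlap, beside 0.637% of all tested genes. The median log2 fold change of the members was -0.03 and that of all tested genes 0.00, with 3 members above 0 and 7 below. In bulk liver, fewer cells of a type and less RNA per cell cannot be told apart.

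**Figure D2:**
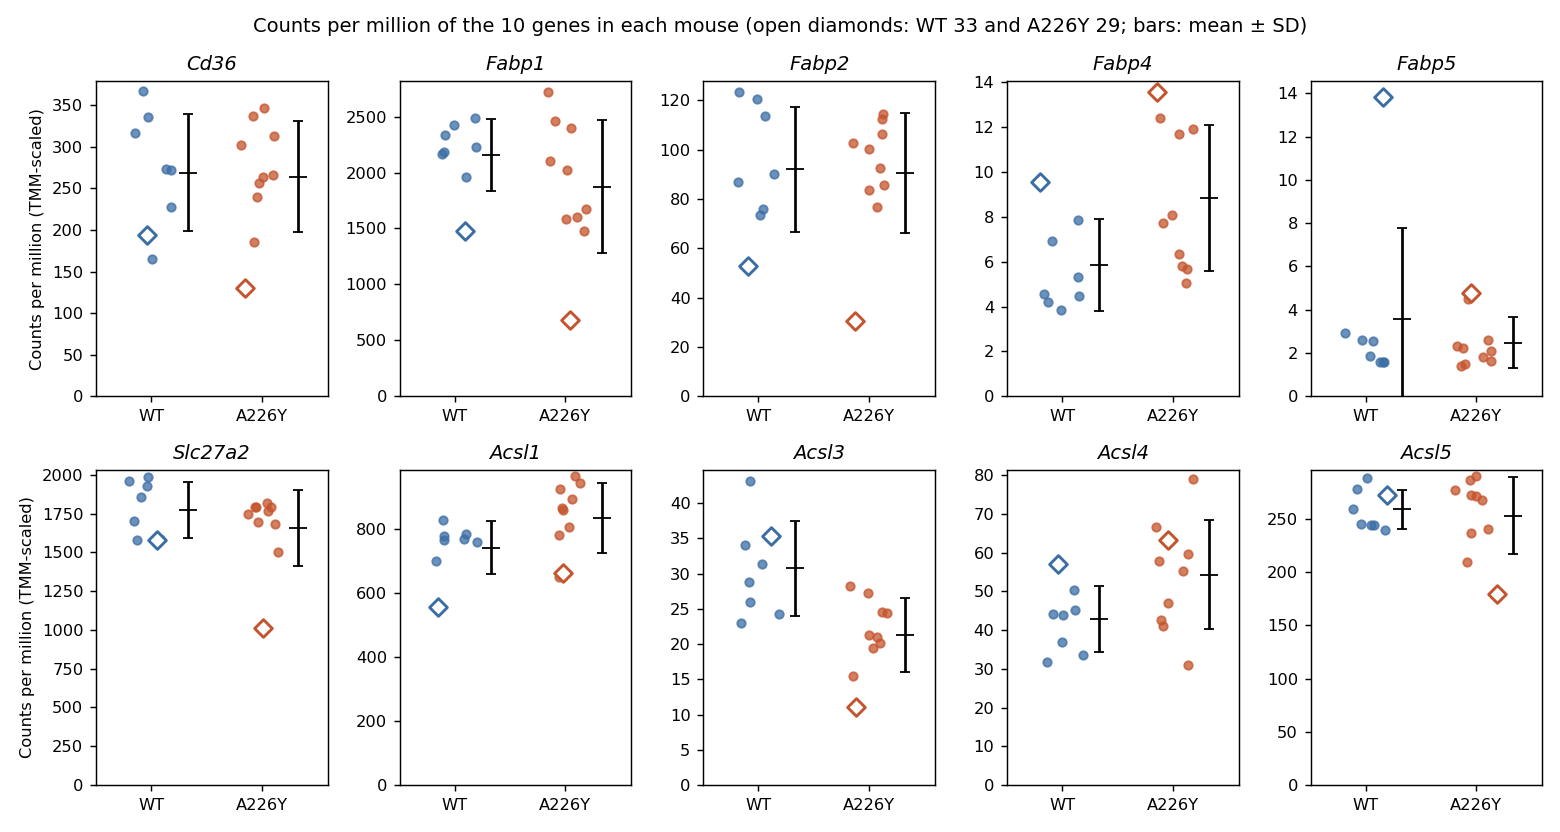
CPM of each gene in each mouse, with axes from 0, WT in blue and A226Y in orange, open diamonds for WT mouse 33 and A226Y mouse 29, and bars for the mean and SD (the lower bar of Fabp5 in WT is cut by the axis). Acsl3 is the panel in which all 10 A226Y mice lie below the WT mean of 30.7, and Fabp5 in WT is carried by 1 mouse at 13.8.

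Cd36 (chr5:17781690-17888801) encodes the scavenger receptor that takes up long-chain fatty acids. Its level was 131 at the lowest, 265 at the median and 346 CPM at the highest over the 10 A226Y mice, and 165, 273 and 367 CPM over the 8 WT mice. The genotypes overlapped over nearly their whole range, with only A226Y mouse 29 below the lowest WT mouse. For Cd36 the log2 fold change was -0.03 (SE 0.17) with a 95% interval from -0.39 to 0.34, and edgeR's quasi-likelihood test gave an adjusted p of 0.938. The sign was not stable, since the log2 fold change was 0.29 with an adjusted p of 0.405 when surrogate variables were added and 0.05 with an adjusted p of 0.833 without A226Y mouse 29.

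Slc27a2 (chr2:126552407-126588243) encodes FATP2, the fatty acid transporter and very-long-chain acyl-CoA synthetase of liver. Its lowest, median and highest values were 1011, 1756 and 1815 CPM in A226Y and 1578, 1779 and 1984 CPM in WT. Without A226Y mouse 29, which was lowest, the A226Y mice spanned 1502 to 1815 CPM. For Slc27a2 the log2 fold change was -0.09 (SE 0.10), the interval ran from -0.30 to 0.11, and the adjusted p was 0.551. It was -0.03 (adjusted p = 0.766) without that mouse and turned to 0.03 (adjusted p = 0.905) with surrogate variables.

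Fabp1 (chr6:71199827-71205023), the liver fatty acid-binding protein and a textbook PPAR-alpha target, had values of 681, 1852 and 2717 CPM in A226Y at the lowest, median and highest, and of 1475, 2204 and 2491 CPM in WT. The coefficient of variation was 31.8% in A226Y and 14.9% in WT, and 22.3% and 7.95% without mice 29 and 33, a difference that was not tested. Between genotypes its log2 fold change was -0.20 (SE 0.18), with an interval from -0.59 to 0.18 and an adjusted p of 0.485. It was -0.11 (adjusted p = 0.598) without A226Y mouse 29, -0.08 (adjusted p = 0.824) with surrogate variables and -0.10 (adjusted p = 0.78) with an offset for transcript length. The lowest mouse of each genotype was the one that stood apart, A226Y 29 and WT 33.

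Fabp2 (chr3:122895072-122899506), the intestinal form, was clearly present in liver. It lay at 30.6, 96.4 and 114 CPM in A226Y and at 52.6, 88.4 and 123 CPM in WT for the lowest, median and highest mouse. Enterocyte markers were at or near 0, with a summed level of at most 1.22 CPM over 6 genes in any library and with Lct and Sis at 0 in all 18. For Fabp2 the log2 fold change was -0.02 (SE 0.20), the interval ran from -0.43 to 0.39, and the adjusted p was 0.953. Its sign was not stable either, at 0.08 (adjusted p = 0.725) without A226Y mouse 29, -0.11 (adjusted p = 0.753) without WT mouse 33 and 0.09 (adjusted p = 0.737) with surrogate variables.

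Fabp4 (chr3:10204088-10208576), the adipocyte and macrophage form, was low, at 123 to 734 counts in a library. Its lowest, median and highest values were 5.04, 7.91 and 13.6 CPM in A226Y and 3.87, 4.92 and 9.55 CPM in WT. Above the highest WT mouse lay 4 of the 10 A226Y mice, and the other 6 lay within the WT range. A226Y over WT, the log2 fold change was 0.60 (SE 0.23), with an interval from 0.13 to 1.07, a p of 0.0144 and an adjusted p of 0.0755, so that Fabp4 was not called. An exact permutation test of the mean log2 CPM, two-sided over 43758 divisions of the mice, gave an unadjusted p of 0.0328. Fabp4 was called higher with scaling by library size only (adjusted p = 0.0463), with DESeq2 (adjusted p = 0.0401) and without both mice 29 and 33 (log2 fold change 0.66, adjusted p = 0.0389), and also without A226Y mouse 22 (0.67, adjusted p = 0.04996) or WT mouse 33 (0.74, adjusted p = 0.0331) alone, while its adjusted p over all settings and left-out mice ran from 0.0331 to 0.274.

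The other cells that express Fabp4 gave these values. Of the 9 adipocyte markers 3 were tested, with Cidec called higher and Adrb3 called lower, and the defining markers Adipoq, Plin1 and Lep reached at most 0.837, 0.287 and 0.341 CPM in any library. The summed adipocyte level was 23.3 to 54.0 CPM in A226Y and 22.8 to 26.3 CPM in WT. Most of that sum was Lipe, at 16.5 CPM on average in both genotypes, and Cidec. Cidec was at 15.0 ± 10.7 CPM in A226Y and 4.71 ± 2.64 CPM in WT (mean ± SD), and it is also listed below among PPAR-gamma targets. None of the 12 endothelial markers was called by edgeR (3 at an unadjusted p under 0.05, 1 called by DESeq2, none by limma-voom), and 1 was called higher without mice 29 and 33, a fit in which Fabp4 was called too. Over all mice Pecam1 was at -0.03 (adjusted p = 0.849), Cdh5 at -0.14 (adjusted p = 0.414) and Kdr at 0.02 (adjusted p = 0.918), and, chosen after their values were seen, Ptprb was at 0.26 (adjusted p = 0.0593), Rspo3 at 0.21 (adjusted p = 0.0758) and Clec4g at -0.21 (adjusted p = 0.11). The endothelial sums were 434 to 637 CPM in A226Y and 443 to 585 CPM in WT. Of the 10 macrophage and Kupffer cell markers 1 was called, Clec4f, which was lower in A226Y (log2 fold change -0.65, adjusted p = 0.0261), with 5 called lower without mice 29 and 33. Adgre1 (-0.40, adjusted p = 0.265) and Cd68 (-0.44, adjusted p = 0.0786) were not called over all mice, and the sums were 341 to 1271 CPM in A226Y, highest in mouse 29, and 507 to 1053 CPM in WT, highest in mouse 33. Fabp4 was highest in the same 2 mice of its genotypes. The part of these cells in the level of Fabp4 was not tested.

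Fabp5 (chr3:10012548-10016607), the epidermal form, was the lowest member, with 36 to 396 counts in a library. It ranged from 1.40 over a median of 2.15 to 4.76 CPM in A226Y and from 1.56 over a median of 2.21 to 13.8 CPM in WT. The highest WT value was that of mouse 33, and the other 7 WT mice reached 2.92 CPM at most. The log2 fold change was -0.52 (SE 0.41) with an adjusted p of 0.413, and without WT mouse 33 it was 0.24 with an adjusted p of 0.571. DESeq2, which replaced the 396 counts of WT mouse 33 by 61 as an outlier, also gave a positive value (0.24, adjusted p = 0.53), so that the sign turned on that mouse. No other count of a member was replaced by DESeq2. Neutrophil markers, of which 2 of 6 were tested and none was called by edgeR, DESeq2 or limma-voom or at an unadjusted p under 0.05, summed to 61.7 CPM in A226Y mouse 29 and 22.8 CPM in WT mouse 33 beside medians of 3.14 and 3.06, while S100a8 and S100a9 reached at most 16.2 and 21.1 CPM and Ly6g at most 0.118 CPM. Their part in the level of Fabp5 was not tested.

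**Figure D3:**
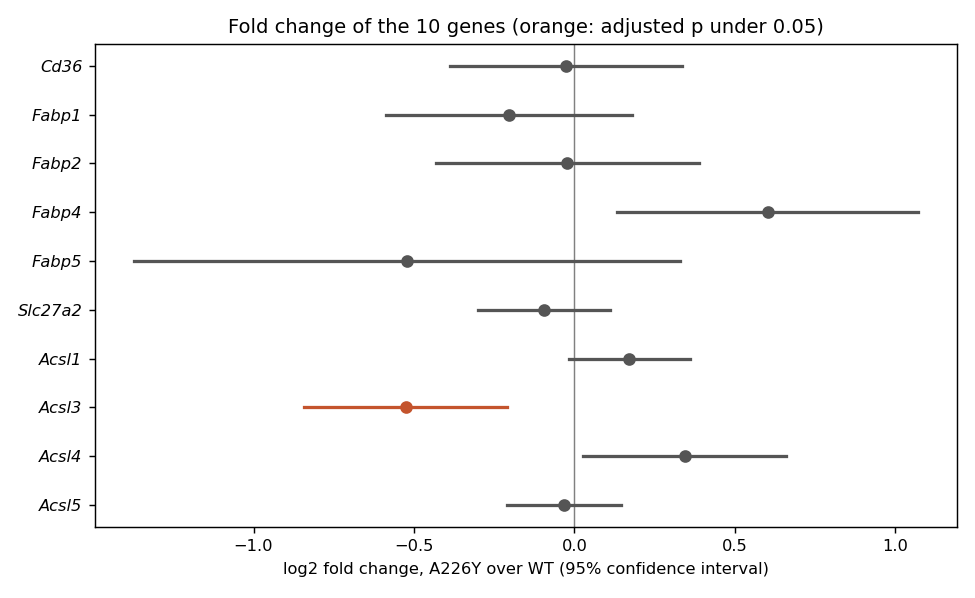
Log2 fold change of each gene (A226Y over WT, points) with its 95% interval from edgeR's quasi-likelihood fit (lines). Acsl3, in orange, is the gene with an adjusted p under 0.05 (0.0261). The intervals of Fabp4 (0.13 to 1.07) and Acsl4 (0.03 to 0.66) also leave out 0, at adjusted p of 0.0755 and 0.132.

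Among the synthetases, Acsl1 (chr8:46471037-46536051), the main hepatic form, stood at 652, 864 and 967 CPM in A226Y and at 558, 768 and 830 CPM in WT for the lowest, median and highest mouse. Above the highest WT mouse lay 6 of the 10 A226Y mice, and none lay below the lowest. The log2 fold change of 0.17 (SE 0.09), with an interval from -0.02 to 0.36, did not pass the test (adjusted p = 0.214). It was 0.11 (adjusted p = 0.446) with an offset for transcript length. As a fold, that interval runs from 0.988 to 1.28.

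Acsl3 (chr1:78657825-78707743), the form of the endoplasmic reticulum and of nascent lipid droplets, was the called member. Its values were 11.1, 21.2 and 28.3 CPM at the lowest, median and highest in A226Y and 23.01, 30.1 and 43.2 CPM in WT. All 10 A226Y mice were below the WT mean, 6 were below the lowest WT mouse, and the other 4 lay within the WT range. On average A226Y mice had 21.3 ± 5.22 CPM (SD, n = 10), against 30.7 ± 6.72 CPM (SD, n = 8) for the wild type. Acsl3 fell by 0.53 on the log2 scale (SE 0.15) to 0.695 of WT, with an interval from 0.558 to 0.865, and edgeR's adjusted p was 0.0261. The exact permutation test, two-sided and unadjusted, gave a p of 0.00382 where the smallest possible was 2.29e-05.

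The call for Acsl3 remained without mice 29 and 33 together (log2 fold change -0.42, adjusted p = 0.0353). It was lost with 4 surrogate variables as covariates (-0.38, adjusted p = 0.247) and without WT mouse 14, the highest (-0.44, adjusted p = 0.0667). Utp14b lies on the same strand within Acsl3 and had 81 to 353 counts where Acsl3 had 379 to 1676, and how reads were divided between them is not stated.

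Acsl4 (chrX:142317993-142390535), which activates arachidonic acid for membrane phospholipids, lay at 30.9, 56.6 and 79.1 CPM in A226Y and at 31.7, 44.0 and 57.1 CPM in WT. Above the highest WT mouse were 5 A226Y mice, and 1 was below the lowest. The log2 fold change was 0.34 (SE 0.15), with a p of 0.0341 and an adjusted p of 0.132. It was 0.05 (adjusted p = 0.863) with surrogate variables, and Acsl4 was called only without A226Y mouse 5 (0.41, adjusted p = 0.0444) among the settings and left-out mice.

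Acsl5 (chr19:55251938-55297720) had a coefficient of variation of 7.19% in WT, the lowest of the 10 genes there over all mice, while without WT mouse 33 Acsl1 was lower (4.96% against 7.46%). The lowest, median and highest values were 179, 269 and 291 CPM in A226Y and 239, 253 and 288 CPM in WT. The log2 fold change was -0.03 (SE 0.09), the interval ran from -0.21 to 0.14, and the adjusted p was 0.832. The sign of Acsl5 turned as well, to 0.01 (adjusted p = 0.916) without A226Y mouse 29 and to 0.07 (adjusted p = 0.74) with surrogate variables. Its 3′ part overlaps Zdhhc6 on the other strand, which had 1575 to 3986 counts beside 5959 to 17899 for Acsl5, and strand use in counting is not stated.

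**Figure D4:**
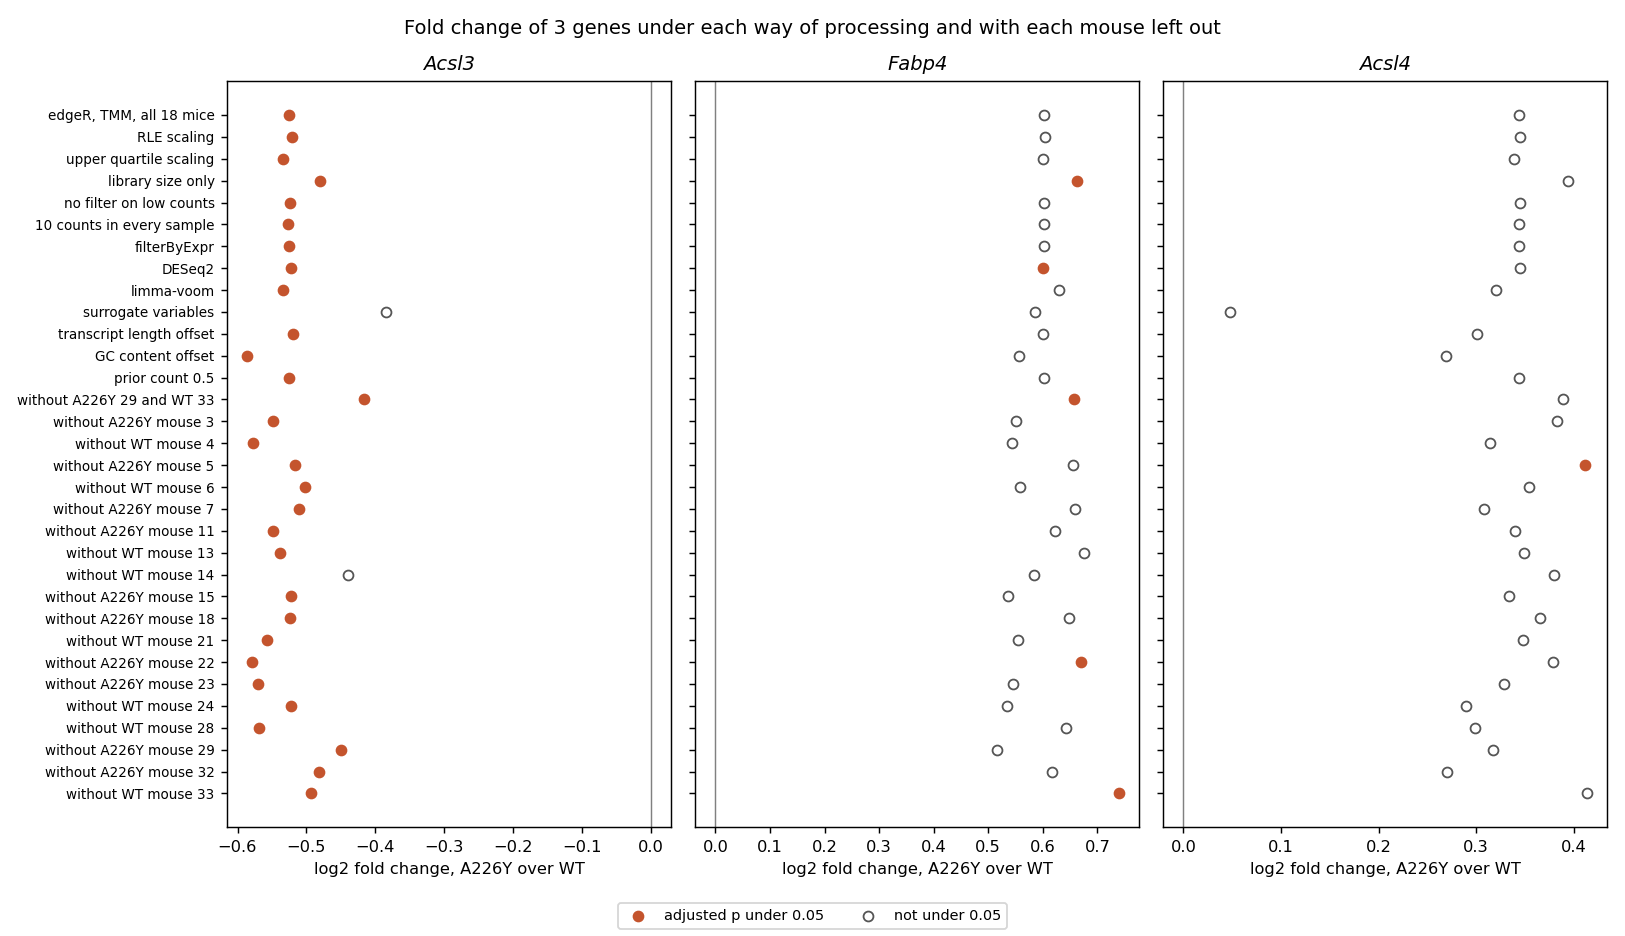
Log2 fold change (A226Y over WT) of Acsl3, Fabp4 and Acsl4 in each fit, one row a setting or left-out mouse, with filled orange points where the adjusted p was under 0.05. Acsl3 keeps a negative value in every row, from -0.59 to -0.38, and is open with surrogate variables and without WT mouse 14, whereas Fabp4 and Acsl4 are filled in few rows.

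Pairs of members were also compared between mice of the same genotype. After the genotype mean was removed from log2 CPM, 13 of the 45 pairs of members were correlated over the 18 mice at a Benjamini-Hochberg adjusted p under 0.05 over all pairs (permutation within genotype, two-sided), 8 positively and 5 negatively, and 11 were by Spearman's rho. Without A226Y 29 and WT 33, none of the 45 was, with 9 at an unadjusted permutation p under 0.05 beside 23 over all mice. All 13 had the same sign over the remaining 16 mice, as had 35 of all 45 pairs. Their size changed unevenly, with r going from 0.684 to 0.747 for Fabp5 with Acsl4, from 0.846 to 0.752 for Cd36 with Slc27a2 and from 0.79 to 0.211 for Fabp1 with Slc27a2.

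The 3 most positive pairs all held Slc27a2. Slc27a2 and Fabp2 had r = 0.866 (permutation p = 0.00131, adjusted 0.00982) and rho = 0.736 (p = 0.00187, adjusted 0.0168), with r = 0.903 within A226Y, 0.782 within WT and 0.523 without the 2 mice farthest from the median of Fabp2, which were mice 29 and 33. Slc27a2 and Cd36 had r = 0.846 (permutation p = 0.0001, adjusted 0.0036) and rho = 0.622 (p = 0.00911, adjusted 0.0373), with 0.882 within A226Y, 0.83 within WT and 0.749 without the 2 mice farthest in Cd36. The r of the 2 uptake genes was thus high within each genotype, where no separate test was run. A226Y mouse 29 was the lowest of its genotype in both genes. Slc27a2 and Fabp1 had r = 0.79 (permutation p = 0.00731, adjusted 0.0274) but rho = 0.416 (p = 0.0678, adjusted 0.209), with r = 0.873 within A226Y, 0.376 within WT and 0.211 without the 2 farthest mice, which were mice 29 and 33.

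The 3 most negative pairs all held Acsl1 or Fabp1. Acsl1 and Fabp5 had r = -0.772 (permutation p = 0.00214, adjusted 0.0138) but rho = -0.245 (p = 0.322, adjusted 0.498), with -0.722 within A226Y, -0.895 within WT and -0.488 without the 2 farthest mice. Fabp1 and Fabp4 had r = -0.668 (permutation p = 0.00089, adjusted 0.00801) and rho = -0.738 (p = 0.00179, adjusted 0.0168), with -0.713 within A226Y, -0.656 within WT and -0.575 without the 2 farthest. Acsl1 and Acsl4 had r = -0.657 (permutation p = 0.00447, adjusted 0.0201) and rho = -0.624 (p = 0.00892, adjusted 0.0373), with -0.661 within A226Y, -0.658 within WT and -0.463 without the 2 farthest.

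**Figure D5:**
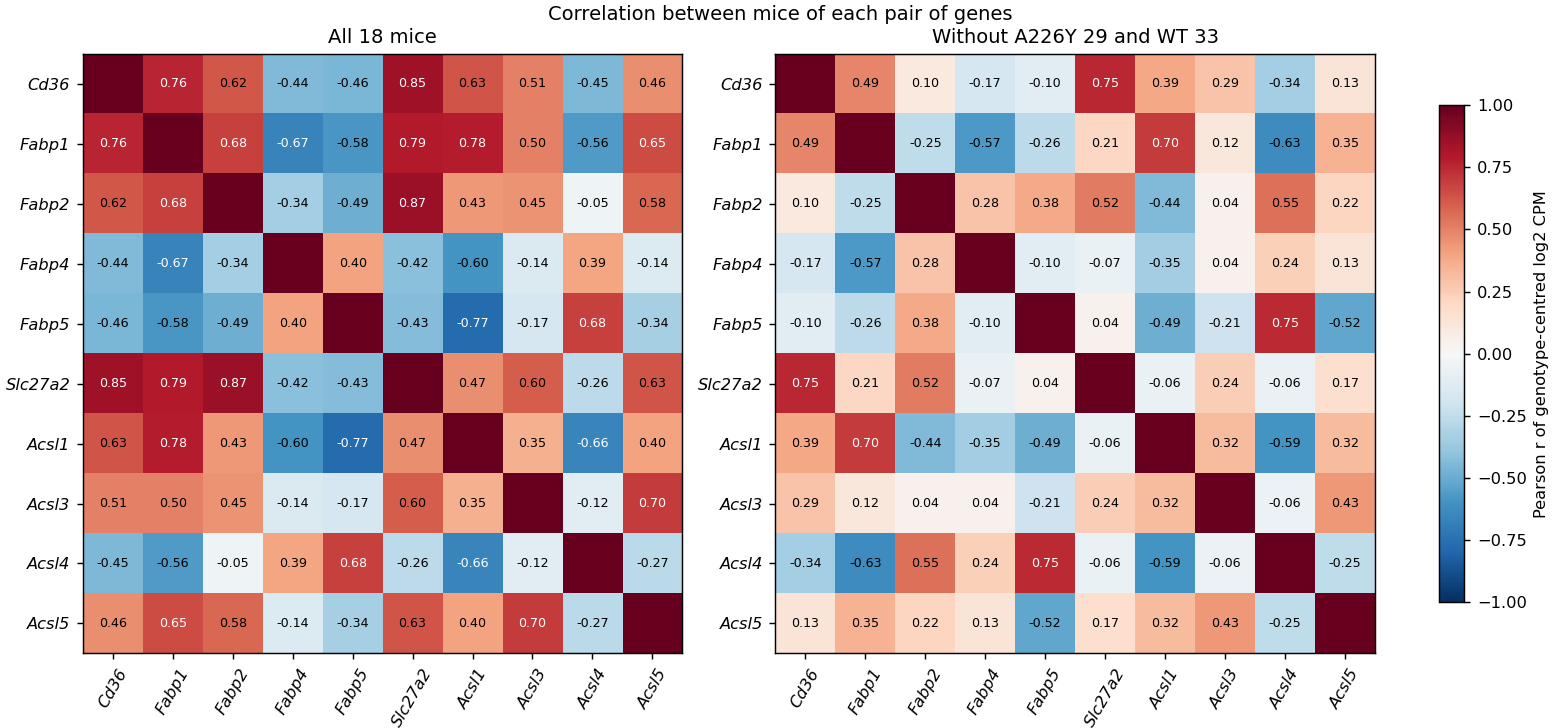
Pearson r of genotype-centred log2 CPM for each pair of genes (colour from -1 in blue to 1 in red, value printed in each cell) over all 18 mice (left) and without A226Y 29 and WT 33 (right). The r is closer to 0 in the right panel for 39 of the 45 pairs, while Cd36 with Slc27a2 (0.75), Fabp1 with Acsl1 (0.70) and Fabp5 with Acsl4 (0.75) are at or above 0.70 there.

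Among the 13185 protein-coding genes tested, the 2 whose genotype-centred log2 CPM was most like that of each member were named by Pearson's r, as a description with no test. For Acsl3 they were genes of cholesterol synthesis, Fdft1 (squalene synthase, r = 0.939, and 0.89 without mice 29 and 33) and Hmgcs1 (HMG-CoA synthase, r = 0.923, and 0.91 without them). Fdft1 was itself lower in A226Y (log2 fold change -0.67, adjusted p = 0.0344), while Hmgcs1 (-0.80, adjusted p = 0.0708) was not called. Cd36 was most like Vnn1 (pantetheinase, r = 0.934, and 0.889 over 16 mice) and Vwa8 (r = 0.932, and 0.876). Acsl4 was most like Cntrl (r = 0.917, and 0.915) and Ccar1 (r = 0.90, and 0.884).

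Of the 20 genes chosen over 18 mice, 3 were also chosen over 16 (Vnn1 for Cd36, Irx3 for Fabp4 and Cntrl for Acsl4), so that the 2 mice decide most of the names. Fabp1, whose picks over 16 mice were Serf1 (r = 0.809) and Kcna2 (r = 0.807), was over 18 mice most like Bdh1 (3-hydroxybutyrate dehydrogenase, r = 0.938, and 0.755 over 16 mice) and Nnt (r = 0.931, and 0.719). Slc27a2 was most like Suclg1 (succinyl-CoA ligase, r = 0.961, and 0.848) and Cyp2a22 (r = 0.945, and 0.815). Fabp2 was most like Gnpat (r = 0.959, and 0.833) and Ppa2 (r = 0.93, and 0.809). Acsl5 was most like Zadh2 (r = 0.897, and 0.802) and Idh1 (isocitrate dehydrogenase, r = 0.89, and 0.766). Acsl1 was most like Arhgap35 (r = 0.894, and 0.815) and Fam20b (r = 0.882, and 0.759). Fabp5 was most like Fndc3b (r = 0.938, and 0.744) and Ercc3 (r = 0.923, and 0.843). Fabp4 was most like Irx3 (r = 0.853, and 0.791) and Jade2 (r = 0.793, and 0.714).

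Of 30 other genes of fatty acid uptake, binding and activation, 22 were tested, and 4 were lower and 1 higher in A226Y, and their median log2 fold change was -0.11. Without mice 29 and 33, 4 were lower and 2 higher. Acsm1, a medium-chain acyl-CoA synthetase, fell by 0.65 on the log2 scale (SE 0.10, adjusted p = 0.00149). Acss2, which activates acetate, fell by 0.49 (SE 0.11, adjusted p = 0.00607). Slc27a5, the FATP5 and bile acyl-CoA synthetase of hepatocytes and a close relative of Slc27a2, fell by 0.39 (SE 0.08, adjusted p = 0.00627), from 955 ± 144 to 730 ± 66.8 CPM. Acsf2 fell by 0.33 (SE 0.10, adjusted p = 0.0311), and Acbd3, a Golgi protein with an acyl-CoA-binding domain, was the one that rose, by 0.19 (SE 0.05, adjusted p = 0.016).

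In lipoprotein lipolysis, 2 of 14 tested genes were lower and none higher by edgeR, with a median log2 fold change of -0.12, 4 at an unadjusted p under 0.05 and 3 called by DESeq2. They were Lipc, the hepatic lipase (-0.66, SE 0.17, adjusted p = 0.0132), and Lmf1, the factor that matures lipases in the endoplasmic reticulum (-0.45, SE 0.07, adjusted p = 0.00103).

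Of 23 regulators, 5 were lower and 1 higher, with a median of -0.05. The receptors most often named for these genes did not pass the test, with Ppara at 0.00 (SE 0.10, adjusted p = 0.987), Pparg at -0.04 (SE 0.12, adjusted p = 0.854) and Hnf4a at 0.08 (SE 0.09, adjusted p = 0.59). Srebf1, the gene of SREBP-1, fell by 1.22 on the log2 scale (SE 0.26, adjusted p = 0.00551), from 209 ± 71.9 to 89.8 ± 40.7 CPM. Mlxipl, the gene of ChREBP, fell by 0.53 (SE 0.11, adjusted p = 0.00389), Foxa2 by 0.33 (SE 0.08, adjusted p = 0.0148) and Rxrg by 0.47 (SE 0.13, adjusted p = 0.0226). Ppargc1a, the coactivator PGC-1 alpha, rose by 0.74 (SE 0.16, adjusted p = 0.00539). The fifth lower gene, Nr1i3, encodes the receptor CAR.

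Of 26 targets of PPAR-alpha that are no members, edgeR called 2 higher and 1 lower, with a median of 0.13, while 8 stood at an unadjusted p under 0.05 and DESeq2 called 6, and without mice 29 and 33 the counts were 4 higher and 0 lower. Cyp4a31, a fatty acid hydroxylase, rose by 0.94 (SE 0.27, adjusted p = 0.0256) and Plin5, a lipid droplet protein, by 0.62 (SE 0.19, adjusted p = 0.0361). Of 8 tested PPAR-gamma targets of the fatty liver, Cidec, a lipid droplet protein, rose by 1.67 (SE 0.40, adjusted p = 0.0109) and Fitm1 fell by 1.96 (SE 0.36, adjusted p = 0.00282), and the median was 0.10. Without mice 29 and 33, 2 of this list were higher and 1 lower. Over all tested genes the median was 0.00 and 14.3% were called.

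Among markers of cell types and zones, hepatocyte markers were called in 4 of 10. Tat (log2 fold change 0.85), Cps1 (0.55) and Apob (0.29) were higher and Apoa2 (-0.31) was lower, and without mice 29 and 33 the counts were 2 higher and 2 lower. Of the first listed, Alb (0.08, adjusted p = 0.781), Ttr (-0.22, adjusted p = 0.0753) and Apoa1 (0.09, adjusted p = 0.783) were not called. Of 9 stellate cell and fibroblast markers, the collagens Col1a1, Col1a2 and Col3a1 were lower, while Lrat (-0.17, adjusted p = 0.26), Des (0.06, adjusted p = 0.739) and Pdgfrb (0.00, adjusted p = 0.999) were not called. Of 7 pericentral markers Cyp1a2 was lower, and Glul (-0.07, adjusted p = 0.801), Cyp2e1 (-0.26, adjusted p = 0.259) and Oat (0.13, adjusted p = 0.611) were not called. Of 8 periportal markers Cdh1 was higher, with 1 higher and 1 lower without mice 29 and 33, and Hal (0.32, adjusted p = 0.256), Sds (0.15, adjusted p = 0.699) and Gls2 (-0.06, adjusted p = 0.762) were not called. DESeq2 called 3 periportal markers, and 3 stood at an unadjusted p under 0.05 by edgeR. The latter were Cdh1 and, chosen after their values were seen, Ctsc (-0.47, edgeR's adjusted p = 0.0656) and Pigr (-0.25, adjusted p = 0.0566). Of 13 clock genes Clock was higher (2 genes without mice 29 and 33), Arntl (0.25, adjusted p = 0.645) was not called and Npas2, at most 0.336 CPM, was not tested. In the other lists DESeq2 called 6 hepatocyte, 4 stellate cell and fibroblast, 1 pericentral and 2 clock markers.

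Of the first listed markers of rarer cells, Krt19, Krt7 and Epcam of cholangiocytes reached at most 1.84, 1.24 and 1.98 CPM, and Cd3e, Cd3g and Cd8a of lymphocytes at most 1.82, 1.71 and 1.33 CPM. The lymphocyte sum was nevertheless 88.8 CPM in WT mouse 33 beside a WT median of 13.4 CPM, with Jchain of plasma cells at up to 70.4 CPM, and Spp1 of the cholangiocyte list reached 21.6 CPM. None of 6 cholangiocyte and 8 lymphocyte markers was called by edgeR, DESeq2 or limma-voom, with 1 of each list at an unadjusted p under 0.05. Of 6 red blood cell markers none was called by edgeR or limma-voom, 1 was by DESeq2, and none stood at an unadjusted p under 0.05, with Hbb-bs at 102 to 470 CPM, Hbb-bt at 16.6 to 87.1 CPM, Hba-a1 at 17.6 to 90.1 CPM and a summed level of 769 CPM in WT mouse 33 beside a WT median of 263. The called markers named here and above other than the first listed were named after their values were seen. Pericentral sums were lowest in A226Y 29 (4518 CPM) and WT 33 (8056 CPM), the mice in which several members were lowest as well, and the part of zonation in those values was not tested.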

How the data were processed

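Liver RNA of 18 mice, 1 library each, was sequenced by the authors in single reads of 50 bases. The deposited values are whole-number read counts per gene, not normalised, with the unit counts per the file headers (matchCounts). The study's methods name RSEM on an Ensembl annotation, whereas the submitters' processing notes name bcl2fastq, MultiQC, fastp, STAR, featureCounts and GRCm38, and which of these made the counts, and whether strand was used, is not given in the sources used here.

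Genes that reached 10 counts in no less than 50% of the A226Y or of the WT mice were kept, and the counts were scaled by TMM and tested with edgeR 4.0.16 (quasi-likelihood, genotype as the only term, Benjamini-Hochberg over all 13353 genes, adjusted p under 0.05 called). CPM are TMM-scaled, and log2 CPM had a prior count of 2. Alternatives used sva 3.50.0 (4 surrogate variables as covariates), limma-voom 3.58.1 and DESeq2 1.42.0, other scalings and filters, offsets for transcript length and GC content, and fits without each mouse. The fits and the pair test were tested on simulated data. Positions are from GENCODE M21 on GRCm38, matched by Ensembl identifier, and promoters from RefSeq on GRCm38.p6. Levels per kilobase used the union of exons. Correlation p-values came from 100000 permutations within genotype, and exact p-values from all divisions of the mice.

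The members, gene lists and tests were chosen with earlier results of these data known. Named were all members, in each pathway list the called genes with the smallest p (at most 5) with Ppara, Pparg and Hnf4a, in each marker list the first 3 genes, and for each member the 2 genes most like it. Same-genotype libraries differed beyond counting noise in all 73 pairs. Protein sequences were not used here. Values of a few listed genes are not reported here.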

Additional observations from a re-analysis of the deposited data

Results flagged for a closer look

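In 20 groups checked (10 genes in 2 genotypes), 4 held a mouse whose gap to its nearest neighbour was a large share of the group's range, where chance gives about 1 in 20 groups. All 4 were A226Y mouse 29 or WT mouse 33. Fabp2 was at 30.6 CPM in A226Y mouse 29, beside 76.8 to 114 CPM in the other A226Y mice. Slc27a2 was at 1011 CPM in the same mouse, beside 1502 to 1815 CPM. Fabp5 was at 13.8 CPM in WT mouse 33, beside 1.56 to 2.92 CPM in the other WT mice, and Acsl1 was at 558 CPM there, beside 701 to 830 CPM.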

How the results depend on the processing

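Acsl3 kept its negative log2 fold change in all 13 alternative settings and with each of the 18 mice left out, and its call in all but 2 of them, surrogate variables and the fit without WT mouse 14. The number of members called higher was 0 with edgeR and became 1 (Fabp4) with library size only, with DESeq2 and with A226Y mouse 29 and WT mouse 33 left out together, and was 0 to 1 with each mouse left out. Members called lower numbered 1, and 0 with surrogate variables, with 0 to 1 when each mouse was left out. Genes called numbered 1910 (50.8% higher), 50 with surrogate variables and 1255 (without WT mouse 14) to 2560 (without A226Y mouse 29) with each mouse left out, and library size alone moved the share of higher calls to 67.9%. Correlated pairs numbered 13, 0 without mice 29 and 33 together, and 6 (without A226Y mouse 29) to 16 with each mouse left out, with 8 without WT mouse 33. The cause of these shifts was not tested. No paired analysis was possible because the numbers in the mouse names are not shared between the genotypes. The settings with both mice left out and with the principal transcript length were chosen after seeing the data. Fabp5, at 36 to 396 counts in a library, had the widest interval of the members.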
